A study of Mus musculus with 8 samples.

Results

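The genes described here are the 10 members of the MHC class II presentation pathway in the deposited count table, which holds 24537 genes. They were taken by symbol: Cd74, H2-Aa, H2-Ab1, H2-Eb1, H2-DMa, H2-DMb1, H2-DMb2, H2-Oa, H2-Ob and Ciita. All 10 were found, and all 10 had enough counts to be tested. They were measured by RNA sequencing of EpCAM+ cells, sorted from the pancreatic tumours of 8 FVB/NJ mice aged 44 to 49 days, with 1 library per tumour. In the 4 tumours labelled KO both Lifr alleles were floxed (f/f). Of the 4 tumours labelled WT, replicates 1 and 2 carried 1 floxed Lifr allele (f/+), and replicates 3 and 4 carried none (+/+). Every mouse also carried Pdx1-Cre, whose promoter drives Cre recombinase in pancreatic epithelium, with floxed alleles of Trp53 (f/f) and the reporter Rosa26LSL-Luc among its targets. The comparison asks how expression differed with Lifr deficiency.

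Class II molecules display peptides from the endosomal route to CD4+ T cells. An alpha and a beta chain pair in the endoplasmic reticulum with the invariant chain, Cd74, which blocks the groove and steers the complex to endosomes. Proteases there trim Cd74 to a fragment called CLIP, H2-DM exchanges CLIP for peptide, and H2-O restrains H2-DM. Ciita, the class II transactivator, switches the genes on without binding DNA, through the RFX, CREB and NF-Y proteins that sit on the X and Y boxes of their promoters. Macrophages, dendritic cells and B cells make class II as a rule, and many epithelia make it when exposed to interferon gamma.

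The label of the targeted gene went against its transcript. Lifr, which encodes a receptor chain for leukaemia inhibitory factor, was at 183 ± 34.5 CPM in the tumours labelled KO and 97.8 ± 22.2 CPM in those labelled WT (SD, n = 4 each), where CPM is counts per 1000000 after TMM scaling of the libraries. Its log2 fold change, labelled KO minus labelled WT as in all that follow, was 0.90 ± 0.19 (SE), and it was called higher (edgeR's quasi-likelihood test, Benjamini-Hochberg adjusted over 14728 genes, adjusted p = 0.0121). Since counts were summed over the transcript, they cannot show whether the floxed part was deleted. Groups are therefore named by their labels, and every direction rests on those labels. Counts summed to between 14938875 and 22698340 per tumour. Epcam, the antigen of the sort, was at 421 ± 57.7 CPM in tumours labelled KO and 775 ± 96.5 CPM in tumours labelled WT (SD, n = 4 each). Leukocyte genes were present in every library: 10 shared leukocyte genes took 0.390% to 0.462% of the counts in tumours labelled KO and 0.208% to 0.315% in tumours labelled WT. The 12 epithelial genes took 0.344% to 0.489% in tumours labelled KO and 0.726% to 1.01% in tumours labelled WT. In such mixed material, fewer cells of a type and less RNA per cell cannot be told apart.

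The promoters of the members share short sequences that the choice by symbol did not use. RefSeq promoter windows of 300 bases (250 before and 50 after the annotated start, build GRCm38.p6, from C57BL/6J and not from these mice) matched 7 of the 10 members. The core of the Y box, GATTGG on either strand, was in 7 of these 7, against 16.1% of all 32851 promoter windows. A match describes these letters only and is no measure of binding. The stretches below are shown because they hold the Y box core in capitals and, where present, the end of the X box in capitals (CNNATGATG, searched on both strands, a form chosen after the sequences were seen). They are 100 bases each, 5′ to 3′ on the strand of the gene.
H2-Aa: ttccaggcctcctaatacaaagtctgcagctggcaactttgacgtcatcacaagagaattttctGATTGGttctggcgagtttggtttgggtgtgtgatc
H2-Eb1: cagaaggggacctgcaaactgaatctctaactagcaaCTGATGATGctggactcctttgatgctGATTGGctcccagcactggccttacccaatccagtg
H2-DMb1: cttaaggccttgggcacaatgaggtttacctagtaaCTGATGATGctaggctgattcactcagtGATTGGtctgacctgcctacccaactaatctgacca
H2-DMb2: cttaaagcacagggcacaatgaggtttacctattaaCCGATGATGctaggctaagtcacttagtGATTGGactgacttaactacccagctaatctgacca
H2-Oa: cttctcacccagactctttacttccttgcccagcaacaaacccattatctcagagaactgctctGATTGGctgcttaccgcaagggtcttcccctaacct
H2-Ob: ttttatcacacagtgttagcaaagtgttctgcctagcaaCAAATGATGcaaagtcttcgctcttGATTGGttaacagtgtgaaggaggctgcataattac

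These stretches lie at chr17:34287837-34287936 on the minus strand (H2-Aa), and on the plus strand at chr17:34305743-34305842 (H2-Eb1), chr17:34153065-34153164 (H2-DMb1), chr17:34145094-34145193 (H2-DMb2), chr17:34092271-34092370 (H2-Oa) and chr17:34238783-34238882 (H2-Ob). In these 6 genes the Y box core began 44 to 91 bases before the annotated start. In H2-DMa it lay 199 bases before the start of 1 window. The X box end was in 4 members (H2-Eb1, H2-DMb1, H2-DMb2 and H2-Ob), against 2.75% of all windows, and began 25 to 28 bases before the Y box core. Both sequences on the gene's strand were found in 39 windows of the table (0.119%), these 4 among them. The form of the X box end was chosen after these sequences were seen, so its shares cannot test an excess. H2-DMb1 and H2-DMb2 are copies with windows 84.2% identical, so they do not count separately. The string planned as the X box core, ACAGATG on either strand, was in 2 of the 7 members, H2-Oa and H2-Aa, against 5.01% of all windows. It lay 137 bases before the start in H2-Oa and 232 bases before it, on the other strand, in H2-Aa, so in neither did it lie where the X box end lay in the other genes. Promoters of Cd74, H2-Ab1 and Ciita are not shown.

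Levels per transcript length differed widely among the members. By deposited FPKM (fragments per kilobase per 1000000 reads), averaged over the 8 tumours, the order was Cd74 (1849 ± 428), H2-Aa (1149 ± 315), H2-Ab1 (675 ± 141), H2-Eb1 (144 ± 113), H2-DMa (77.3 ± 13.7), H2-DMb1 (61.0 ± 11.1), H2-DMb2 (35.8 ± 10.6), Ciita (9.73 ± 2.51), H2-Oa (2.85 ± 0.977) and H2-Ob (1.80 ± 0.538; SD over 8 tumours of both groups). Of the 9 neighbouring pairs, 7 kept this order in 8 of 8 tumours. The exceptions were H2-Eb1 above H2-DMa, which held in 5 of 8, and H2-Oa above H2-Ob, which held in 7 of 8. Ranges over tumours overlapped for Cd74 and H2-Aa, H2-Aa and H2-Ab1, H2-Eb1 and H2-DMa, H2-DMa and H2-DMb1, and H2-Oa and H2-Ob. The A chains thus stood above the H2-DM chains in FPKM, and both H2-O chains were at the bottom.

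**Figure D1:**
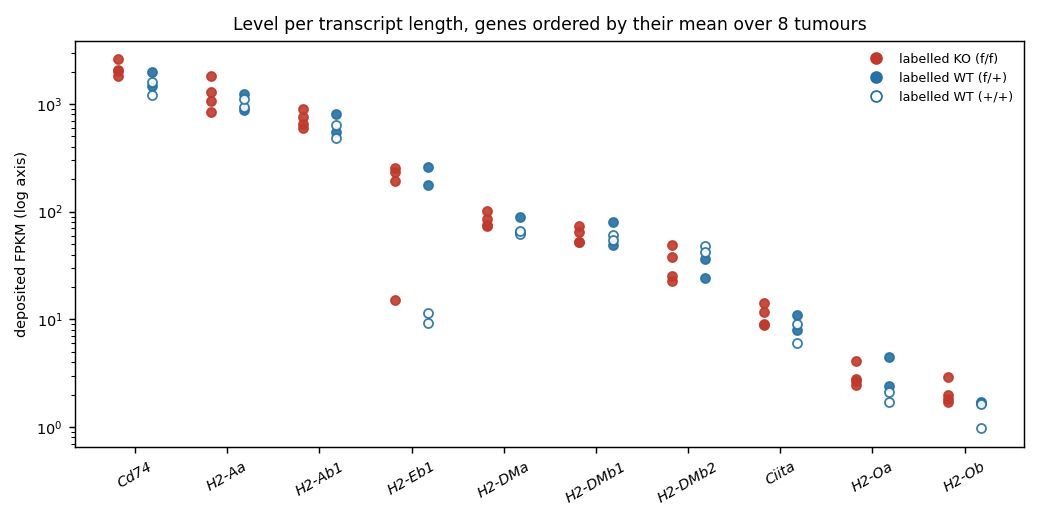
Deposited FPKM (log axis) of the 10 class II genes in each tumour, with the tumours labelled KO to the left of those labelled WT for each gene. Cd74 lies between 1208 and 2608 FPKM and H2-Ob between 0.971 and 2.91, while H2-Eb1 splits into 5 tumours at 178 to 258 and 3 at 9.31 to 15.01.

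Cd74 was the 1 member that passed the test between the labelled groups. The invariant chain had 4682, 6364, 4889 and 4864 CPM in KO replicates 1 to 4, against 4356, 2974, 2619 and 3560 CPM in WT replicates 1 to 4. The lowest tumour labelled KO was above the highest labelled WT, and KO replicate 2 stood well above the rest. The means were 5200 ± 782 CPM in the tumours labelled KO and 3377 ± 759 CPM in those labelled WT (SD, n = 4 each), which gives a log2 fold change of 0.62 ± 0.19 (SE; 95% interval 0.19 to 1.06; edgeR adjusted p = 0.0474). The call was close to the threshold. It was lost in 7 of 8 fits that each left out 1 tumour, with log2 fold changes of 0.51 to 0.77 and adjusted p of 0.0313 to 0.131, and kept only without WT replicate 1. By DESeq2 it was kept (0.62, adjusted p = 0.00471), and with epithelial scaling too (1.51, adjusted p = 0.000781). It was lost with library totals alone (0.45, adjusted p = 0.102), and the difference was −0.16 with libraries scaled to the shared leukocyte genes (adjusted p = 0.467).

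Among the 10 members, 1 was called higher and 0 lower, while 11.1% of all tested genes were called higher, 10.8% lower and 21.8% in either direction. The members' share called was therefore not above the background. All 10 fitted log2 fold changes were above 0, from 0.0045 to 0.79, as were 7570 of the 14728 tested genes. The members' median was 0.43 against 0.011 over all tested genes, and 9 of the 10 members lay above that 0.011. At an unadjusted p under 0.05 there were 4 of the 10 members (Cd74, H2-Ob, H2-DMa and Ciita) and 5300 of the 14728 tested genes. Groups did not overlap for 2 members, Cd74 and H2-Ob, and for 25.5% of tested genes.

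**Figure D2:**
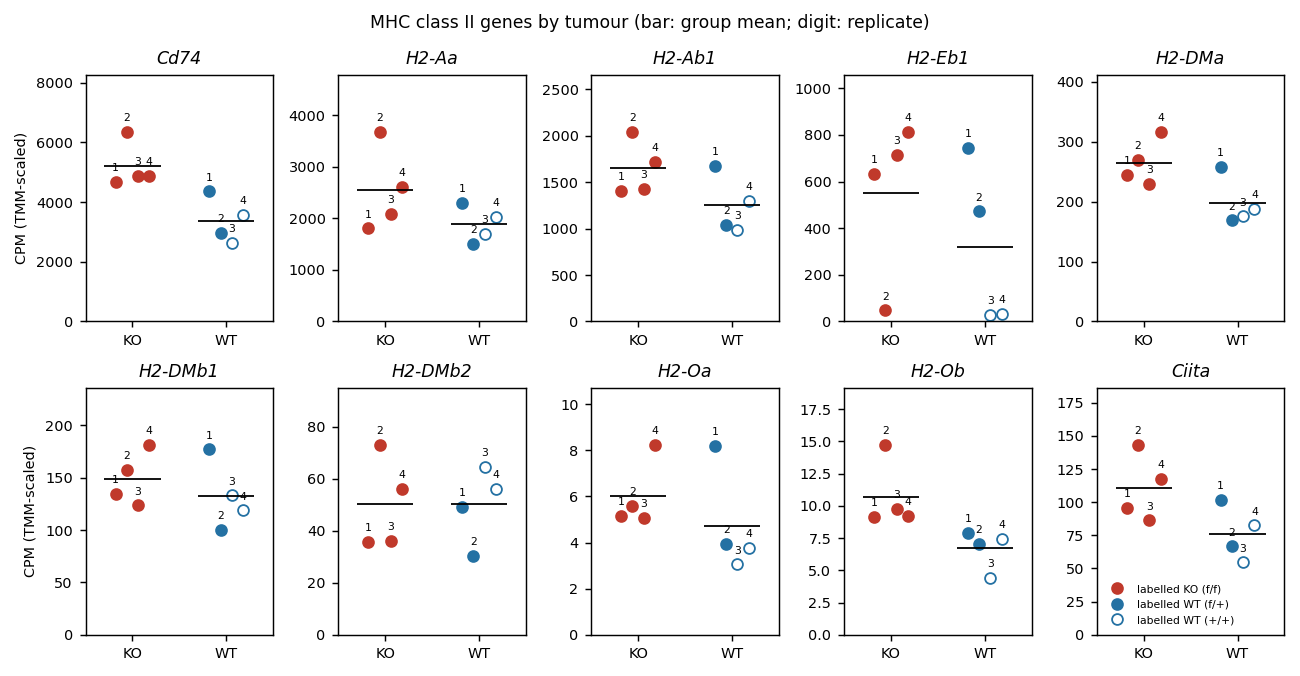
TMM-scaled CPM of each class II gene by tumour, labelled KO (f/f, red) left of labelled WT (f/+ filled blue, +/+ open blue), with bars at group means and digits for replicates. Cd74 and H2-Ob have no overlap between the groups, and H2-Eb1 is near 0 in KO replicate 2 and WT replicates 3 and 4.

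The chains of the A molecule did not pass the test. H2-Aa, its alpha chain, had 1805, 3683, 2079 and 2611 CPM in KO replicates 1 to 4, against 2300, 1497, 1699 and 2033 CPM in WT replicates 1 to 4. H2-Ab1, its beta chain, had 1406, 2045, 1431 and 1715 CPM in KO replicates 1 to 4, against 1671, 1037, 988 and 1299 CPM in WT replicates 1 to 4. For both genes KO replicate 2 was highest. The groups overlapped through WT replicate 1, an f/+ tumour, for both genes, and for H2-Aa through WT replicate 4 as well. The log2 fold changes were 0.44 ± 0.24 for H2-Aa and 0.40 ± 0.20 for H2-Ab1 (SE), with 95% intervals of −0.11 to 0.98 and −0.058 to 0.86 (edgeR adjusted p = 0.229 and 0.189). The pair kept a narrow ratio, with 1.28 to 1.80 H2-Aa counts per H2-Ab1 count in tumours labelled KO and 1.38 to 1.72 in tumours labelled WT.

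H2-Eb1, the beta chain of the E molecule, fell into separate levels that cut across the labels. It had 635, 47.5, 713 and 815 CPM in KO replicates 1 to 4, against 746, 472, 26.5 and 33.0 CPM in WT replicates 1 to 4. KO replicate 2 and WT replicates 3 and 4 were low and the other 5 tumours high, with a gap of 9.94-fold between the highest low and the lowest high tumour. Both +/+ tumours were low and both f/+ tumours were high, whereas the f/f tumours were on both sides. The log2 fold change of 0.79 ± 1.12 (SE; 95% interval −1.76 to 3.34; edgeR adjusted p = 0.653) therefore rests on how many tumours of each label were low. Against the f/+ tumours alone it was −0.14 (adjusted p = 0.931), and against the +/+ tumours alone 4.22 (adjusted p = 0.0554). With 1 tumour left out it lay between 0.41 (without WT replicate 3) and 1.64 (without WT replicate 1), and without KO replicate 2, WT replicate 3 and WT replicate 4 it was 0.24 (adjusted p = 0.608).

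The same 3 tumours stood apart in some ratios between class II genes within a tumour, but not in all. These ratios were not among the planned comparisons. The ratio of H2-Eb1 to H2-Ab1 counts was 0.451, 0.0232, 0.498 and 0.475 in KO replicates 1 to 4, against 0.446, 0.455, 0.0269 and 0.0254 in WT replicates 1 to 4. H2-Ab1 itself was highest of all in KO replicate 2 and lowest in WT replicate 3. Since the 3 tumours were picked by low H2-Eb1, the ratio of H2-Eb1 to H2-Ab1 separates them by construction. The ratio of H2-DMb2 to H2-DMb1 was 0.265, 0.465, 0.293 and 0.310 in KO replicates 1 to 4, against 0.278, 0.302, 0.486 and 0.472 in WT replicates 1 to 4, so the 3 tumours low in H2-Eb1 were the 3 highest. H2-DMb1 and H2-DMb2 are close copies, so reads could be split between them. H2-Ea-ps, the locus of the E alpha chain and annotated as a pseudogene, had a ratio to H2-Aa of 0.0177, 0.0294, 0.0162 and 0.0176 in KO replicates 1 to 4, against 0.0210, 0.0173, 0.0296 and 0.0375 in WT replicates 1 to 4. Here too the same 3 tumours were highest. The ratio of H2-Aa to H2-Ab1 did not set them apart by such a gap, though they held the 3 highest values. Other pairs did not separate them. H2-DMa to H2-DMb1 was 1.71, 1.32 and 1.59 in KO replicate 2 and WT replicates 3 and 4. In the rest it ran from 1.46 (WT replicate 1) to 1.86 (KO replicate 3). H2-Ob to H2-DMb1 was 0.0938, 0.0334 and 0.0625 in these 3 tumours. In the rest it ran from 0.0448 (WT replicate 1) to 0.0793 (KO replicate 3).

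**Figure D3:**
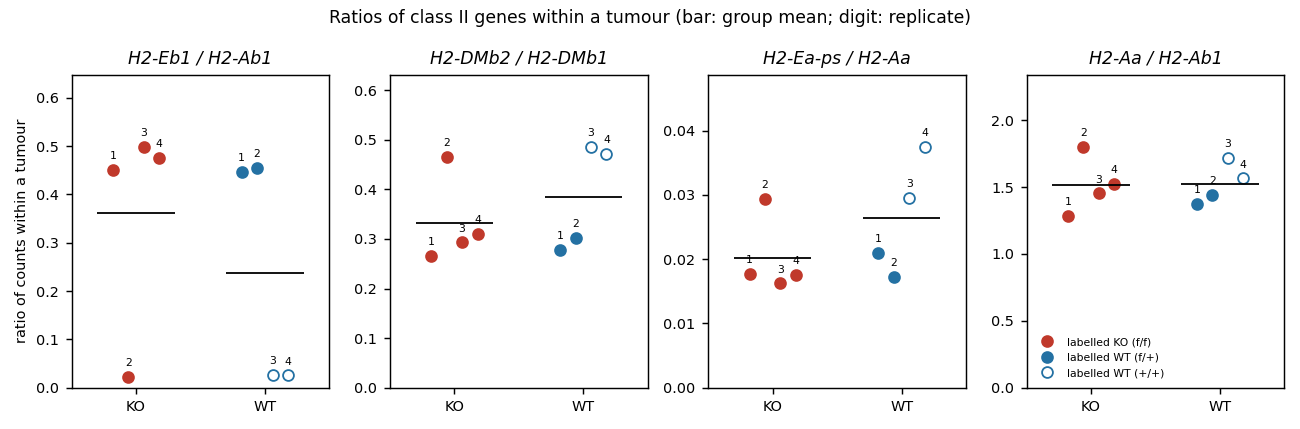
Ratios of counts within each tumour for H2-Eb1 to H2-Ab1, H2-DMb2 to H2-DMb1, H2-Ea-ps to H2-Aa and H2-Aa to H2-Ab1, labelled KO left of labelled WT, with bars at group means. KO replicate 2 and WT replicates 3 and 4 sit apart from the other 5 tumours in the first 3 panels. In the first panel this holds by construction, since they were picked by low H2-Eb1. For H2-DMb2 to H2-DMb1 they lie at 0.465 to 0.486 against 0.265 to 0.310.

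A search for genes with the pattern of H2-Eb1, made after its values were seen, returned mostly genes of the same chromosome. Likeness was the root-mean-square difference between log2 CPM profiles over the 8 tumours, each centred on its own mean, among genes whose mean log2 CPM reached 1. The members and genes with Gm, Rik or Mir symbols were passed over. The nearest 10, at differences of 0.35 to 1.09, included Atp6v0c-ps2, Atp6v0c, Rps2, Rps18, D17H6S56E-5, H2-T9, H2-T22 and H2-T23. These 10 lie on chromosome 17 (mm10) between 24163865 and 36042702, as does H2-Eb1 (34305867 to 34316674), whereas 772 of the tested genes (5.24%) are on that chromosome. That share is over all tested genes, including those passed over in the search. The next in order, Eif3j1 and Eif3j2 (1.26 each), lie on chromosome 2. D17H6S56E-5 had 135, 24.7, 194 and 167 CPM in KO replicates 1 to 4, against 184, 403, 20.5 and 19.6 CPM in WT replicates 1 to 4. Several of these genes are near-identical copies or overlap each other (Atp6v0c and Atp6v0c-ps2, H2-T9 and H2-T22, Rps2 and Rps18 with their pseudogenes elsewhere), so their counts are uncertain and are not independent. Mouse strains carry different forms of the H2 region on chromosome 17, the labels name 1 strain for all 8 mice, and the part of H2 type in these values was not tested.

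The chains of H2-DM, the peptide exchanger, behaved unequally. H2-DMa, the alpha chain, had 245, 269, 229 and 317 CPM in KO replicates 1 to 4, against 258, 169, 175 and 189 CPM in WT replicates 1 to 4. WT replicate 1 alone reached into the range of the tumours labelled KO, and the log2 fold change was 0.42 ± 0.16 (SE; edgeR adjusted p = 0.0898). Of the fits that each left out 1 tumour, it was called in the one without WT replicate 1 (0.58, adjusted p = 0.0243). Its annotated gene overlaps Brd2 on the opposite strand, a gene with 60672 counts over the 8 tumours, and whether the libraries kept strand is not given in the sources used here. The value of H2-DMa is therefore uncertain.

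Mice carry a pair of genes for the H2-DM beta chain. H2-DMb1 had 135, 157, 124 and 181 CPM in KO replicates 1 to 4, against 177, 101, 133 and 119 CPM in WT replicates 1 to 4. H2-DMb2 had 35.7, 73.0, 36.2 and 56.1 CPM in KO replicates 1 to 4, against 49.2, 30.4, 64.6 and 56.1 CPM in WT replicates 1 to 4. Groups overlapped widely for both. The log2 fold change was 0.17 ± 0.18 for H2-DMb1 and 0.0045 ± 0.289 for H2-DMb2 (SE; edgeR adjusted p = 0.539 and 0.993), and the sign for H2-DMb2 turned with the scaling (−0.16 with library totals alone). Their longest open reading frames in GENCODE M21 transcripts are 786 bases each and are identical at 754 positions (95.9%), with a longest identical run of 221 bases, so reads could be split between the copies. The promoter windows are 84.2% identical over 247 aligned bases, which is visible in the stretches printed above.

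H2-O, the inhibitor of H2-DM made chiefly in B cells and some dendritic cells, was at the lower end. H2-Oa, its alpha chain, had 5.15, 5.59, 5.07 and 8.24 CPM in KO replicates 1 to 4, against 8.18, 3.96, 3.05 and 3.77 CPM in WT replicates 1 to 4, on 64 to 176 counts per tumour; it overlaps BC051537 on the opposite strand, which had 11 counts in all. KO replicate 4 and WT replicate 1 stood above the other 6 tumours. H2-Ob, its beta chain, had 9.11, 14.7, 9.79 and 9.22 CPM in KO replicates 1 to 4, against 7.92, 7.03, 4.44 and 7.42 CPM in WT replicates 1 to 4. The H2-Ob groups did not overlap, but its log2 fold change of 0.68 ± 0.23 (SE) did not pass the test (edgeR adjusted p = 0.0705), and that of H2-Oa was 0.35 ± 0.33 (adjusted p = 0.488). By DESeq2, H2-Ob was called (0.67, adjusted p = 0.0296). In the same tumours 6 tested B cell genes gave 0 calls (edgeR), and their summed level was 21.1 to 48.7 CPM in tumours labelled KO and 8.90 to 32.9 CPM in tumours labelled WT. The part of B cells in the H2-O values was not tested.

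Ciita, the transactivator, had 95.5, 143, 86.3 and 117 CPM in KO replicates 1 to 4, against 102, 66.6, 54.6 and 82.5 CPM in WT replicates 1 to 4. KO replicate 2 was highest, and WT replicate 1 overlapped the tumours labelled KO. The log2 fold change of 0.54 ± 0.22 (SE; 95% interval 0.042 to 1.03) missed the threshold after adjustment (edgeR adjusted p = 0.112). Ciita, on chromosome 16 (mm10, 10480072 to 10527640), overlaps Dexi on the opposite strand, and the count and FPKM tables keep different transcripts of it, as they do for Cd74 on chromosome 18 (60803849 to 60812652), which overlaps Mir5107 on its own strand. The other 8 members lie together on chromosome 17 between 34092379 (H2-Oa) and 34316674 (H2-Eb1).

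Some regulators of class II genes were called higher, and most were not. Of 13 tested regulators of class II genes, 5 were called higher and 0 lower, with a median log2 fold change of 0.18. For this list and those below, the share over all tested genes was 11.1% called higher and 10.8% lower. Irf1, an interferon-induced factor that acts on the Ciita gene, rose to 99.9 ± 6.30 CPM in tumours labelled KO, against 73.2 ± 8.28 CPM in tumours labelled WT (SD, n = 4 each; log2 fold change 0.45 ± 0.09, edgeR adjusted p = 0.0122). Jak1, a kinase of the interferon receptors, rose by 0.45 (adjusted p = 0.0119), and Ifngr2, a chain of the interferon gamma receptor, by 0.48 (adjusted p = 0.0192). Creb1, which belongs to the CREB family, was also called (0.46). Ifngr1, the other chain of the interferon gamma receptor (0.079, adjusted p = 0.656), and the kinase gene Jak2 (−0.048, adjusted p = 0.87) did not pass. None of Rfx5, Rfxap, Rfxank, Nfya, Nfyb and Nfyc passed (edgeR), with Nfyb alone of these at an unadjusted p under 0.05. Ifng, the cytokine itself, had 3 counts over the 8 tumours and was not tested.

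Endosomal enzymes, of which some trim Cd74 and others antigens, were higher as a list. Of 9 tested, 8 were called higher and 0 lower, with a median log2 fold change of 0.78. Ctsb, which codes for cathepsin B, was at 4797 ± 706 CPM in tumours labelled KO and 1662 ± 361 CPM in tumours labelled WT (SD, n = 4 each), and differed by 1.53 ± 0.19 in log2 (SE; edgeR adjusted p = 0.0044). Ctsc (1.18) and Lgmn (1.14) were also called. Ctss is the cathepsin best known for the last steps of Cd74 cleavage in B cells and dendritic cells. It was at 2898 ± 287 CPM in tumours labelled KO and 2030 ± 467 CPM in tumours labelled WT. By edgeR it did not pass (0.51 ± 0.19, adjusted p = 0.0834, unadjusted p = 0.0234). Its lowest tumour labelled KO (2618 CPM) was above its highest labelled WT (2392 CPM), and DESeq2 called 9 of the 9 enzymes. Per Cd74 count there were 0.851 to 1.03 Ctsb counts in tumours labelled KO and 0.411 to 0.594 in tumours labelled WT, with no overlap. Ctsb had the largest log2 fold change of the 9, so this ratio does not stand for the list. The smallest was that of Ctsl (0.50), below that of Cd74 (0.62).

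Several genes interspersed with or beside the class II genes on chromosome 17 were higher. Of 8, 5 were called higher and 0 lower, with a median log2 fold change of 0.76. Psmb8, an immunoproteasome subunit, was at 99.9 ± 7.78 CPM in tumours labelled KO and 58.9 ± 9.55 CPM in tumours labelled WT (SD, n = 4 each; log2 fold change 0.76 ± 0.12, edgeR adjusted p = 0.00563). Tap1, a subunit of the class I peptide transporter, rose by 0.83 (adjusted p = 0.00809), and Btnl2, a butyrophilin-like gene, by 1.86 (adjusted p = 0.00876). Psmb8 and Tap1 serve class I presentation rather than class II. Of 3 tested genes of class II turnover, Cd83, which opposes the ubiquitin ligase that removes class II from the surface, was called (1.29 ± 0.38, adjusted p = 0.042), and the ligase gene March1 was not (0.63, adjusted p = 0.13). Of 6 co-stimulatory and checkpoint ligands 0 were called by edgeR, with 1 at an unadjusted p under 0.05 and 1 called by DESeq2. Cd86, a ligand of CD28, was at 77.5 ± 8.15 CPM in tumours labelled KO and 45.9 ± 18.3 CPM in tumours labelled WT (0.76, edgeR adjusted p = 0.0716), and Icam1, an adhesion ligand, differed by 0.31 (adjusted p = 0.198).

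**Figure D4:**
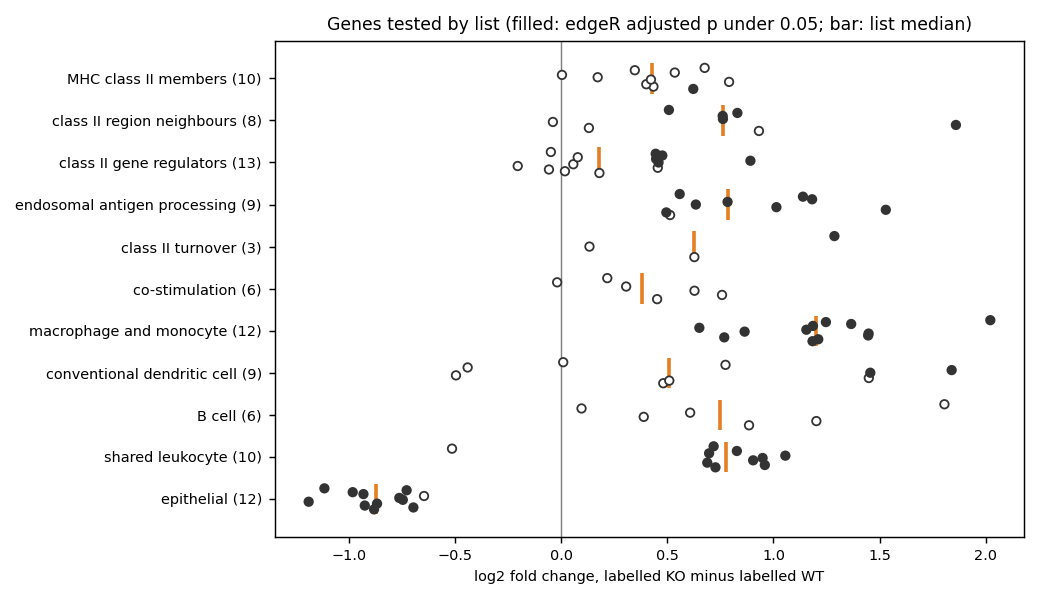
Log2 fold change, labelled KO minus labelled WT, of each tested gene by list (number tested in brackets), with filled points for an edgeR adjusted p under 0.05 and orange bars at list medians. The members' median of 0.43 lies between that of the regulators (0.18) and those of the endosomal enzymes (0.78) and macrophage genes (1.20), and the epithelial median is −0.87.

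Of the immune cell marker lists, only that of macrophages and monocytes was called in full, and the others in part or not at all. Of 12 macrophage and monocyte genes, 12 were called higher, against 11.1% of all tested genes, with a median log2 fold change of 1.20. They took 2.04% to 2.54% of the counts in tumours labelled KO and 0.808% to 1.49% in tumours labelled WT, while the 10 class II members took 0.805% to 1.21% in tumours labelled KO and 0.605% to 1.02% in tumours labelled WT. Ccr2, the chemokine receptor of inflammatory monocytes, rose by 2.02, Itgam by 1.45 and Lyz2 by 1.45 (edgeR adjusted p = 0.0044, 0.00451 and 0.00599). Of 9 conventional dendritic cell genes, 2 were called higher, Cd209a (1.84) and Batf3 (1.46), while Itgax (−0.44) and Clec9a (−0.49) were below 0 and not called. The summed level, to which Itgax gave the most (238 ± 37.9 CPM in tumours labelled KO and 323 ± 101 CPM in tumours labelled WT), was 290 to 431 CPM in tumours labelled KO and 265 to 539 CPM in tumours labelled WT, and no marker of this list was at 0. The lists of plasmacytoid dendritic cells (1 of 3 tested called, Ccr9, 1.17), B cells (0 of 6), T cells (0 of 4) and neutrophils (0 of 5) held few calls. At an unadjusted p under 0.05 there were 2 B cell, 0 T cell and 0 neutrophil genes, and DESeq2 called 1, 0 and 0. Summed levels were 6.09 to 9.34 CPM in tumours labelled KO and 4.54 to 9.38 CPM in tumours labelled WT for the plasmacytoid list, and 15.2 to 28.6 CPM in tumours labelled KO and 6.54 to 21.4 CPM in tumours labelled WT for the T cell list. For the neutrophil list they were 39.0 to 156 CPM in tumours labelled KO and 43.0 to 80.0 CPM in tumours labelled WT. No marker was at 0 in every tumour. Fcer2a and Ms4a1 of the B cell list differed by 1.81 and 1.20, and Mmp9 and S100a8 of the neutrophil list by 1.19 and −0.29, with none of these 4 called. The part of each cell type in the class II values was not tested.

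Cd74 and H2-Ab1 counts were set against the leukocyte gene Ptprc and the macrophage gene Csf1r within the same tumour. In tumours labelled KO these ratios overlapped those in tumours labelled WT or were below them. Per count of Ptprc, which codes for the leukocyte antigen CD45, there were 9.35 to 11.3 Cd74 counts in tumours labelled KO and 8.25 to 13.8 in tumours labelled WT, with overlap. H2-Ab1 per Ptprc count was 2.98 to 3.63 in tumours labelled KO and 3.11 to 4.82 in tumours labelled WT. Per count of Csf1r, the macrophage growth factor receptor, there were 2.16 to 3.07 Cd74 counts in tumours labelled KO and 3.14 to 4.62 in tumours labelled WT, without overlap. H2-Ab1 per Csf1r count was 0.690 to 0.986 in tumours labelled KO and 1.15 to 1.69 in tumours labelled WT, again without overlap. Csf1r itself was called higher (1.21 ± 0.24, edgeR adjusted p = 0.0107), as was Ptprc (0.73 ± 0.16, adjusted p = 0.0145), and these ratios were not tested. Over the macrophage list the log2 fold change ran from 0.65 (Mertk) to 2.02 (Ccr2), so such a ratio depends on the gene chosen.

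The sign of the members depended on what the libraries are scaled to. With library totals alone, 9 of the fitted values stayed above 0 and H2-DMb2 fell below it. With libraries scaled to the 12 epithelial genes, 9 members were called higher, and H2-Eb1 (1.61) was not, while 74.8% of all tested genes were called higher. With libraries scaled to the 10 shared leukocyte genes, all 10 fitted values were below 0, and H2-DMb1 (−0.59, edgeR adjusted p = 0.0155) and H2-DMb2 (−0.74, adjusted p = 0.0106) were called lower, while 68.7% of all tested genes were called lower. These scalings move every gene together, so that the median of all tested genes was 0.011 under TMM, −0.17 with library totals, 0.89 with the epithelial genes and −0.78 with the leukocyte genes. Relative to that median, Cd74 differed by 0.61 under TMM, 0.61 with library totals, 0.62 with the epithelial genes and 0.61 with the leukocyte genes.

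**Figure D5:**
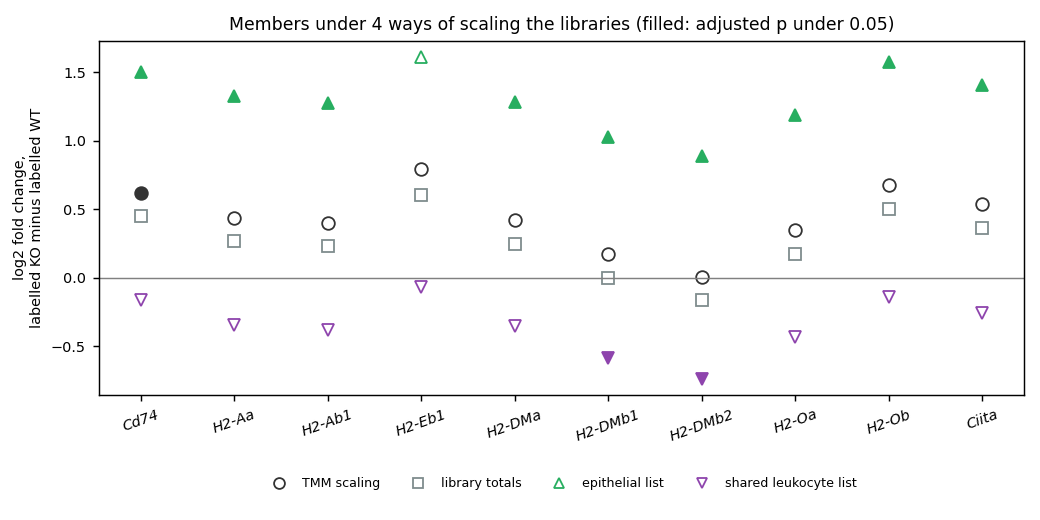
Log2 fold change, labelled KO minus labelled WT, of each member under 4 scalings of the libraries, with filled points for an edgeR adjusted p under 0.05. Cd74 is at 0.62 with TMM, 0.45 with library totals, 1.51 with the epithelial genes and −0.16 with the leukocyte genes, and the other members shift alongside it.

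The genes nearest to the mean profile of Cd74 and the classical chains over the 8 tumours were leukocyte genes in part. Set against the mean centred profile of Cd74, H2-Aa, H2-Ab1 and H2-Eb1, the nearest 8 genes were H2-Eb2, Gimap6, Cd4, Slamf7, Ppp1r16b, Metap1d, Fcrl1 and Rnase6, at root-mean-square differences of 0.20 to 0.33 in log2 CPM. H2-Eb2, the class II gene next to H2-Eb1, had 4.06, 3.0, 4.79 and 4.03 CPM in KO replicates 1 to 4, against 3.75, 2.33, 0.672 and 1.59 CPM in WT replicates 1 to 4. It was low in WT replicates 3 and 4 but not in KO replicate 2, and its log2 fold change was not called (0.93, edgeR adjusted p = 0.17). H2-Eb1, whose log2 values varied most, weighs most on this mean profile, though not in every tumour. In KO replicate 2 the mean profile was −0.065 in centred log2. H2-Eb1 alone was there at −2.20, and Cd74, H2-Aa and H2-Ab1 together at 0.648. The nearest genes therefore match an average that neither followed in that tumour. With H2-Eb1 left out, a choice made after the values were seen, the nearest 8 were Plxna4, Ska1, Zfp984, Ifnar1, Cd52, Fyn, Ubxn11 and Uvrag, and no gene was in both sets of 8.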

How the data were processed

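RNA of EpCAM+ cells sorted from 8 tumours was sequenced. Per the file headers, the deposited counts are whole-number reads in exons of mm10 RefSeq transcripts from HOMER's analyzeRepeats, (plus strand, 1 transcript a gene), and the deposited FPKM values come from the same program, per kilobase of transcript and per 1000000 reads. Further tools named in the submitters' processing notes are STAR 2.4.0k, FastQC 0.11.2 and edgeR 3.6.8. Both tables keep 1 and the same transcript for 20736 genes. If the libraries were unstranded, overlapping genes share reads.

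Groups were taken from titles and genotype labels, and replicate numbers follow listing order. Counts were tested with edgeR 4.0.16 in R 4.3.3 (TMM, filterByExpr minimum count 10 and total 15, glmQLFTest, robust off), with Benjamini-Hochberg adjustment over 14728 genes and calls at an adjusted p under 0.05. TMM factors were 0.890 to 0.965 in tumours labelled KO and 1.05 to 1.10 in tumours labelled WT. Every pair of libraries differed beyond sampling noise (chi-square per degree of freedom at least 32.4). The test was also run on counts simulated from its own fit, which cannot show whether the model suits these data. SE is the absolute log2 fold change divided by the square root of F. Each mouse gave 1 library.

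Alternatives were RLE factors, library totals, scaling to the epithelial or shared leukocyte genes, no filter, DESeq2 1.42.0, each tumour left out, the f/+ or the +/+ tumours alone, and limma 3.58.1 on log2(FPKM + pseudocount of 1 or 0.1). The fits without the 3 tumours low in H2-Eb1, the likeness searches without the fixed profile and the X box end were added after the data were seen. Ratios of counts within a tumour were not among the planned comparisons. Genes named were Lifr, the members, up to 3 called genes of smallest p per list (2 in a list without calls), and the 8 nearest to the mean profile of Cd74 and the classical chains, with others named because a result turned on them. A few genes that met these rules are not reported here but stay in the counts. The members and lists were chosen with earlier results of these data known. Fibroblast, endothelial and acinar lists gave 0 edgeR calls (3, 0 and 2 genes at an unadjusted p under 0.05, with 1, 0 and 2 called by DESeq2). Their median log2 fold changes were 1.16, 0.122 and 2.83. The acinar genes took 0.139% to 2.62% of the counts in tumours labelled KO and 0.0366% to 0.723% in tumours labelled WT.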

Additional observations from a re-analysis of the deposited data

Results flagged for a closer look

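In 3 of 22 group values checked (the 10 members and Lifr in each group of 4), 1 tumour lay far from the other 3 of its group, by a gap over range above Dixon's 95% critical value. Chance flags about 1 in 20 such groups. Cd74 was at 6364 CPM in KO replicate 2, with a gap of 0.877 of the range of the tumours labelled KO. H2-Ob was at 14.7 CPM in the same tumour (0.880). H2-Oa was at 8.24 CPM in KO replicate 4 (0.835), a level also reached by WT replicate 1 at 8.18 CPM. KO replicate 2 is also the f/f tumour with low H2-Eb1, and without it the log2 fold change of Cd74 was 0.51 and that of H2-Ob 0.49.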

How the results depend on the processing

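No paired analysis was made, since the labels link no tumour labelled KO to a tumour labelled WT. Of 190 member fold changes under the alternatives, 143 kept their direction and side of the threshold. Over all genes, 3216 calls became 11106 with epithelial scaling, 10282 with leukocyte scaling, 2036 against f/+ tumours alone, 1038 against +/+ tumours alone, 700 without the 3 tumours low in H2-Eb1, and 1755 (without KO replicate 2) to 3241 with 1 tumour left out (2077 without WT replicate 3). The share called higher was 50.7% with TMM, 22.5% with library totals, 99.2% with epithelial scaling, 1.66% with leukocyte scaling and 24.1% with FPKM. Members called numbered 9 with epithelial scaling, 2 with leukocyte scaling, 2 with DESeq2, 0 to 2 with 1 tumour left out, and 0 with RLE factors, library totals, no filter, f/+ or +/+ alone, either FPKM pseudocount and without the 3 tumours.

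The Cd74 log2 fold change missed the threshold at 0.61 with RLE factors, 0.45 with library totals, 0.63 with no filter, 0.51 against f/+, 0.75 against +/+, 0.46 and 0.46 with FPKM, and 0.39 without the 3 tumours (adjusted p = 0.0518 to 0.422). Epithelial scaling brought past it H2-Aa (1.33), H2-Ab1 (1.28), H2-DMa (1.28), H2-DMb1 (1.03), H2-DMb2 (0.89), H2-Oa (1.19), H2-Ob (1.58) and Ciita (1.41), and DESeq2 H2-Ob (0.67). Leukocyte scaling turned Cd74 (−0.16), H2-Aa (−0.34), H2-Ab1 (−0.38), H2-Eb1 (−0.065), H2-DMa (−0.35), H2-DMb1 (−0.59), H2-DMb2 (−0.74), H2-Oa (−0.43), H2-Ob (−0.14) and Ciita (−0.26). H2-DMb2 also turned with RLE factors (−0.0015), library totals (−0.16), DESeq2 (−0.00020), against +/+ (−0.26) and with FPKM (−0.18 and −0.18), and ranged from −0.23 to 0.15 with 1 tumour left out. Against f/+ alone H2-Eb1 (−0.14) and H2-Oa (−0.0065) turned. With 1 tumour left out Cd74 was 0.51 to 0.77 and H2-DMa 0.32 to 0.58. The cause was not tested, except that scaling to a list moves every gene by construction and leaving out tumours lowers n.

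Of 224 list counts under alternatives, 174 stayed within 1.5 times, of which 3 turned from higher to lower with leukocyte scaling (regulators 7, turnover 1 and plasmacytoid dendritic cell 1). Epithelial scaling gave 13 regulators, 3 turnover, 6 co-stimulation, 7 conventional and 2 plasmacytoid dendritic cell, 5 B cell, 4 T cell, 4 neutrophil, 0 epithelial, 6 fibroblast, 2 endothelial and 6 acinar calls. Leukocyte scaling called higher 1 neighbour, 2 enzyme, 4 macrophage, 1 conventional dendritic cell and 1 acinar gene, and lower 1 neighbour, 2 co-stimulation, 3 conventional dendritic cell and 1 each of neutrophil, leukocyte and fibroblast genes (2 neighbour and 4 conventional dendritic cell calls in all). DESeq2 gave 1 co-stimulation, 1 B cell, 1 fibroblast and 2 acinar calls, and library totals 3 regulators. With 1 tumour left out the counts were 2 to 6 for regulators, 0 to 1 for turnover, co-stimulation, neutrophil, plasmacytoid dendritic cell and T cell genes, 1 to 4 for conventional dendritic cell, 0 to 2 for fibroblast and 0 to 5 for acinar genes. Depth limits H2-Oa (64 to 176 counts per tumour) and H2-Ob (99 to 216).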
